A study of Mus musculus with 58 samples.

Results

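Most of the genes described here encode subunits of respiratory complexes II to V, the nuclear-encoded part of the mitochondrial machinery that oxidises succinate, passes electrons to oxygen and makes ATP. Genes were chosen by name (*Sdha* to *Sdhd*, names starting with *Uqcr*, *Cox4* to *Cox8* subunit names and names starting with *Atp5*) and by a mean normalized count of 10 or more in both brain regions. Of 31246 genes listed, 48 carried such a name and 45 reached the limit, among 15642 genes in all that reached it. They fall into 4 genes of complex II, 8 of complex III, 15 of complex IV and 17 of complex V. The remaining gene, *Cox4nb*, is matched by its name alone and encodes a subunit of the endoplasmic reticulum membrane complex. *Cox7a2l*, counted with complex IV, and *Atp5s* and *Atp5sl*, counted with complex V, are not fixed subunits of these complexes either.

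The data came from RNA-sequencing of the entorhinal cortex (EC) and of the primary visual cortex (PVC) in male C57Bl/6 mice aged 14 to 15 months, with 29 libraries per region and 58 in all. In each region 10 libraries came from *APOE3/3* and 19 from *APOE3/4* mice. Both genotypes were *APOE* targeted replacement mice, in which human *APOE* stands in place of mouse *Apoe* and is driven by the endogenous mouse promoter, and the methods state that the animals came from separate colonies. The same 29 animal numbers occurred in both regions. The values used here were 1 mean normalized count per gene and region, which the authors took over all 29 libraries of that region and thus over both genotypes together. No value of a single mouse was used, so the spread between mice is not known for any value below, no difference was tested, and no effect of *APOE* genotype is given. Depth per library was not analysed here.

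Complex II, succinate dehydrogenase, oxidises succinate in the TCA cycle and hands the electrons to ubiquinone. Complex III carries them from ubiquinol to cytochrome c, and complex IV, cytochrome c oxidase, passes them to oxygen. Complexes III and IV pump protons across the inner membrane, and complex V, ATP synthase, uses the resulting gradient to make ATP. All subunits of complex II are encoded in the nucleus, whereas complexes III, IV and V also need subunits encoded in the mitochondrial genome. Several subunits of complex IV exist as a common isoform and as one that is typical of muscle, lung or testis. Cortical neurons meet most of their demand for ATP through this pathway.

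Promoter sequence is shown for 6 members. The promoters of genes for the respiratory chain are known for sites of NRF1 and of GABP, 2 transcription factors of nuclear genes for mitochondria. A relation between motifs and the ratio between regions was not tested. RefSeq promoter windows (GRCm38.p6, 250 bases before to 50 after the start) were matched to 35 of the 45 members. The lines below give the 250 bases before the start, 5′ to 3′ on the strand of the gene. Capitals mark matches on either strand to 1 of 5 short motifs. The letters searched for NRF1 were GCGCATGC and those for YY1, a further regulator of these genes, were AAGATGGC. For GABP, an ETS factor, the letters were CCGGAAG. The GC-box letters of Sp1 were GGGCGG. The letters of the box bound by TBP, called TATA here, were TATAAA. No motif lies within another, though matches to different motifs may overlap. The first 4 genes have a window with both the NRF1 and the GABP letters, 1 from each complex. *Cox6b2* and *Cox7a1* follow because their ratio between regions was the highest and the lowest of all members.
Sdhb, complex II (chr4:140961021-140961270, forward strand): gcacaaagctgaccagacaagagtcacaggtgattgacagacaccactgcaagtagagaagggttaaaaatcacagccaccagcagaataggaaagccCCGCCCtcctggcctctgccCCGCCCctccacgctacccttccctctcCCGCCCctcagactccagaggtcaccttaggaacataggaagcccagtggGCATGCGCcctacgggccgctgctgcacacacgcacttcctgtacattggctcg
Uqcr11, complex III (chr10:80406822-80407071, reverse strand): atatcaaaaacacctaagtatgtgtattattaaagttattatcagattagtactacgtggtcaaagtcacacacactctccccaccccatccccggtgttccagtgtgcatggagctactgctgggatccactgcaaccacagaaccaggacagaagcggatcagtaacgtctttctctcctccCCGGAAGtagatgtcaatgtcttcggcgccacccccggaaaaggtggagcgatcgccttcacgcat
Cox6a1, complex IV (chr5:115348959-115349208, reverse strand): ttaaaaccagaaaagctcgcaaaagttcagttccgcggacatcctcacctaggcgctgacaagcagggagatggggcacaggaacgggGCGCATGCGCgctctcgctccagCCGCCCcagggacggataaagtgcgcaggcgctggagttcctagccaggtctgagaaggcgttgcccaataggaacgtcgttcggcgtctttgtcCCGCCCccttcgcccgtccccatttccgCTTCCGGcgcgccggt
Atp5k, complex V (chr5:108434400-108434649, reverse strand): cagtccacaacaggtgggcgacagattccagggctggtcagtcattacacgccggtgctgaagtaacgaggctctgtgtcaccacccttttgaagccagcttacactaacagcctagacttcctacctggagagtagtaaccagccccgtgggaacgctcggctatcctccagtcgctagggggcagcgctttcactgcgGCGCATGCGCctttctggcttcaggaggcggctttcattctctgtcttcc
Cox6b2, complex IV (chr7:4753095-4753344, reverse strand): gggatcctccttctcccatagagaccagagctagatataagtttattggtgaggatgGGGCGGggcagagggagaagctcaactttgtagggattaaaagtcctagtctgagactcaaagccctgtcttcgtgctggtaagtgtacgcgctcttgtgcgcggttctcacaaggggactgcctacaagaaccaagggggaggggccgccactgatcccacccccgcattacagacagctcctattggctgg
Cox7a1, complex IV (chr7:30183921-30184170, forward strand): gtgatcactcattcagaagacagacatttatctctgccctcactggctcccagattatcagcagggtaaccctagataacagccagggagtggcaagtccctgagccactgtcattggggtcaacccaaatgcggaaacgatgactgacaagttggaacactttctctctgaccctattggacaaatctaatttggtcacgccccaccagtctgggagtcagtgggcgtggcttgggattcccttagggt

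In *Cox6a1* and *Atp5k* the NRF1 letters were present on both strands, as overlapping matches. The NRF1 match of *Uqcr11* spanned the start and is not in capitals, and the GABP matches of *Sdhb* and *Atp5k* lay 7 and 13 bases after the start, outside the stretch shown. The *Cox7a1* window held none of the 5 motifs, and that of *Cox6b2* held only the Sp1 letters, beginning at −193 from the start. Over all 35 windows of members, 7 (20%) held the NRF1 letters, 11 (31.4%) the GABP letters and 3 (8.57%) the YY1 letters. Of 10518 genes of mean 10 or more with a window, these shares were 5.05%, 15.8% and 4.16%, and of all 27025 genes with a window they were 2.80%, 9.12% and 2.88%. The Sp1 letters were in 13 windows of members (37.1%), against 62.7% of the genes of mean 10 or more and 35.9% of all genes. The TATA letters were in 1 member, *Atp5l* (2.86%), against 7.21% and 14.2%. At least 1 of the NRF1, GABP and YY1 motifs was in 16 members' windows (45.7%), and in 22.9% of the genes of mean 10 or more. These matches describe letters in a window, and binding was not measured.

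Transcripts of complexes II to V were abundant in both regions. To compare genes, the mean normalized count was divided by the length of the gene's annotated exons in kilobases (kb). The median member had a level of 3445 per kb in EC and 1947 per kb in PVC, on the scale of each region. The median percentile of the members was 95.9 in EC and 96.1 in PVC, among the 15098 genes of mean 10 or more with an exon length. In each region 32 of the 45 members were in the top 10% of those genes. Without division by length the median member was at a percentile of 81.7 in EC and 83.9 in PVC. The mean normalized counts of members made up 0.595% of the total in EC and 0.623% in PVC. Complex V had the largest part of this, 0.308% and 0.322%, followed by complex IV with 0.146% and 0.155%, complex III with 0.0731% and 0.0767%, and complex II with 0.0628% and 0.0632%.

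**Figure D1:**
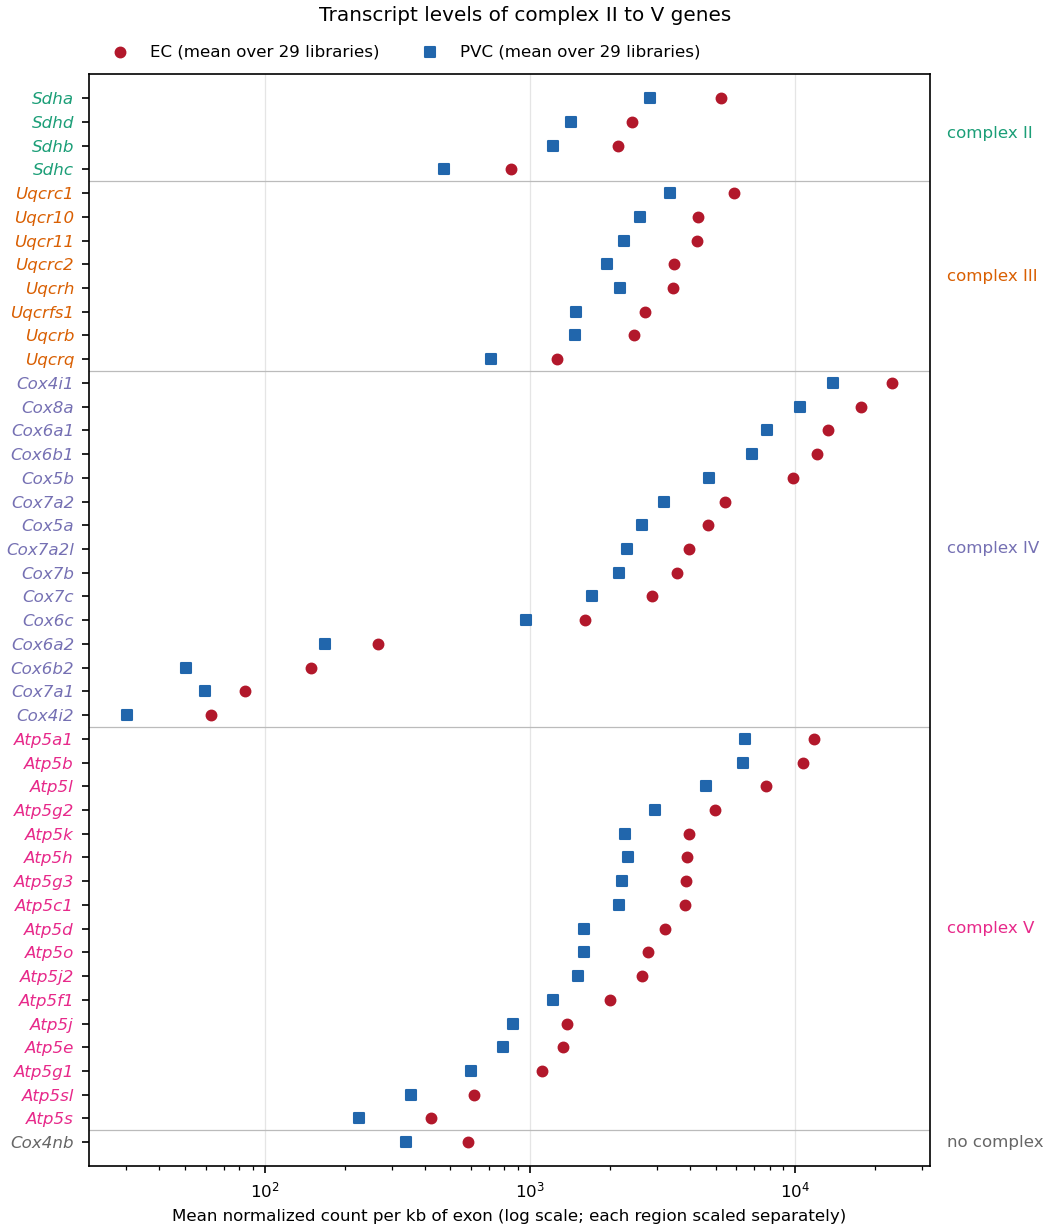
Level of each of the 45 genes in EC (red circles) and PVC (blue squares), as the mean normalized count over 29 libraries per kb of exon on a log axis, ordered within each complex. *Cox4i1* is highest with 23159 per kb in EC on this length, though not on others, 4 tissue-typical isoforms of complex IV are the lowest genes, and the order of genes is nearly the same in both regions; the offset between red and blue includes the separate scaling of the 2 regions.

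In complex II, 1 gene stood above the other 3 in level. *Sdha*, the flavoprotein that binds succinate, had the highest level of the complex, 5234 in EC and 2831 in PVC, in counts per kb. *Sdhb*, the iron-sulfur subunit, had 2150 and 1222, and *Sdhd*, a membrane anchor, had 2432 and 1420. The other anchor, *Sdhc*, was the lowest, at 845 and 474. The highest level of the complex was thus 6.20 times the lowest in EC and 5.97 times in PVC. The order depended on the length. With the median length of a gene's protein-coding transcripts, chosen after seeing the data, *Sdhd* was the lowest and the span was 2.88-fold in EC and 2.67-fold in PVC, with *Sdha* still the highest.

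Levels within complex III spanned 4.65-fold in EC and 4.71-fold in PVC. *Uqcrc1*, a core subunit, was highest with 5869 and 3367 per kb, and the accessory subunit *Uqcrq*, which binds ubiquinone, was lowest with 1261 and 715. With the median transcript length, *Uqcrh* was instead highest (8981 and 5704) and *Uqcrfs1* lowest (2712 and 1493). Also in the complex are the second core subunit *Uqcrc2*, the Rieske iron-sulfur protein *Uqcrfs1*, and the small subunits *Uqcrb*, *Uqcrh*, *Uqcr10* and *Uqcr11*.

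Among the genes of complex IV, *Cox4i1*, the common isoform of subunit 4, had the highest level of the complex, 23159 in EC and 13930 in PVC, in counts per kb of exon. It was the highest of all members on this length, but *Atp5b* was above it with the median transcript length (23677 and 14067) and without a length correction. Next came *Cox8a* (17700 and 10440), *Cox6a1* (13273 and 7834) and *Cox6b1* (12116 and 6863). *Cox5a*, *Cox5b*, *Cox7a2*, *Cox7b*, *Cox7c* and *Cox7a2l* lay below these, and *Cox6c* was the lowest of the 11 members of complex IV with a mean count of 1000 or more, at 1610 and 967. With the median transcript length *Cox6c* had 9981 and 5994, and *Cox7a2l* was the lowest of the 11, at 4095 and 2387. *Cox7a2l* encodes a factor known for joining complexes III and IV into supercomplexes and is not a fixed subunit of complex IV. Its protein and the supercomplexes were not measured in these mice.

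In complex V the highest levels were those of *Atp5a1* and *Atp5b*, the alpha and beta subunits of the catalytic F1 head, at 11793 and 6448 and at 10707 and 6361 per kb, with *Atp5b* the higher of the pair under the median transcript length and without a length correction. *Atp5c1*, *Atp5d* and *Atp5e* encode the central stalk, and *Atp5e* was the lowest of the 5 F1 genes, at 1331 and 793. Each ATP synthase holds several copies of alpha and beta and a single copy of each central stalk subunit. The peripheral stalk genes *Atp5f1*, *Atp5h*, *Atp5j* and *Atp5o* lay between 1377 and 861 (*Atp5j*) and 3896 and 2332 (*Atp5h*) per kb of exon. *Atp5l*, subunit g of the membrane part, reached 7739 and 4596, and *Atp5k* (subunit e) and *Atp5j2* (subunit f) lay lower. The lowest levels were those of *Atp5s* (421 and 227) and *Atp5sl* (614 and 357), whose products are not subunits of the enzyme, *Atp5s* being coupling factor B and *Atp5sl* its relative. *Cox4nb*, in no complex, had 585 and 340.

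The tissue-typical isoforms of complex IV were present at low levels beside their common partners. Shares below are of the summed level per kb of a subunit's isoforms. *Cox4i2*, known from lung, was 0.271% of the subunit 4 transcripts in EC and 0.216% in PVC, with *Cox4i1* 369 and 462 times as high. *Cox6a2*, typical of heart and skeletal muscle, was 1.98% and 2.10% of subunit 6a. *Cox6b2*, typical of testis, was 1.22% of subunit 6b in EC and 0.727% in PVC. *Cox7a1*, also typical of heart and muscle, was 0.886% and 1.07% of the *Cox7a* family, in which *Cox7a2* made up 57.2% and 57.3% and *Cox7a2l* 41.9% and 41.6%. Without a length correction the order of the latter was reversed, with 47.2% and 47.3% for *Cox7a2* and 52.5% and 52.2% for *Cox7a2l*, and the *Cox7a1* share was 0.353% and 0.427%.

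The mean counts of these minor isoforms were small, and *Cox7a1*, *Cox4i2* and *Cox6b2* were the members nearest above the limit of 10. *Cox7a1* had a mean normalized count of 30.6 in EC and 21.7 in PVC, *Cox4i2* of 49.5 and 23.8, *Cox6b2* of 82.2 and 27.7 and *Cox6a2* of 176 and 110. The span of *Cox6a2* overlaps that of *Itgad* in the annotation, and the library kit did not mark strand. Overlap of their exons was not computed, so whether reads of the 2 genes are shared is not known. The 3 genes just outside the limit were the testis isoform *Cox7b2* (11.1 in EC and 5.41 in PVC), the muscle isoform *Cox8b* (5.91 and 5.62) and the testis isoform *Cox8c* (0.0646 and 0). *Cox7b2* was 0.569% and 0.459% of its pair with *Cox7b*, and *Cox8b* was 0.0921% and 0.149% of the *Cox8* family, which *Cox8a* dominated. Without a length correction these shares were 0.255% and 0.205% for *Cox7b2*, and 0.0612% and 0.0987% for *Cox8b*.

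**Figure D2:**
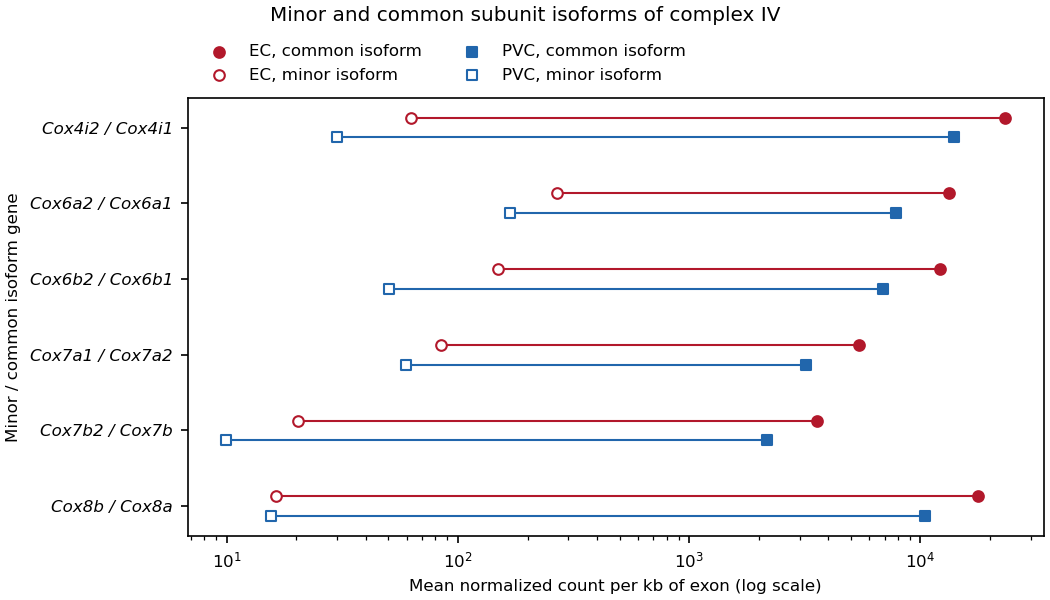
Level of the minor isoform (open symbols) and the common isoform (filled symbols) of 6 complex IV subunits in EC (red circles) and PVC (blue squares), as mean normalized count per kb of exon on a log axis. Each line joins the isoforms of 1 subunit in 1 region; the common isoform is 46.7 times (subunit 6a, PVC) to 1085 times (subunit 8, EC) as high as the minor one.

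Subunit c of ATP synthase, which forms the rotating ring, is encoded by *Atp5g1*, *Atp5g2* and *Atp5g3*, whose mature proteins are the same. Their mean normalized counts were 5440 in EC and 2946 in PVC for *Atp5g1*, 3219 and 1921 for *Atp5g2* and 8420 and 4862 for *Atp5g3*. Per kb of exon, *Atp5g2* made up 50.03% of the transcripts in EC and 51.2% in PVC, *Atp5g3* 38.8% and 38.4%, and *Atp5g1* 11.1% and 10.4%. The order depended on the length used. With the median length of protein-coding transcripts, a choice made after seeing the data, *Atp5g3* was highest with 47.7% and 48.3%, *Atp5g1* had 32.0% and 30.5%, and *Atp5g2* had 20.3% and 21.2%. Each gene's share was similar in the 2 regions under either length. Copies of the *Atp5g1* and *Atp5g2* coding sequences elsewhere in the genome, at 99.8% and 100% identity, add to the uncertainty of their counts.

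The question for the region comparison was whether transcripts of the respiratory chain differ between a cortex that is affected early in Alzheimer's disease and one that is relatively spared. The 2 tables were normalized separately, and the mean counts of the median gene were 1.86 times as high in the EC table, so each log2 ratio of EC over PVC was centred on the median of the 15642 genes of mean 10 or more. On this scale the ratios of the members lay close together and slightly below 0. The median was −0.11, and 40 of the 45 members were below 0. The middle 50% ran from −0.15 to −0.06, against −0.14 to 0.16 for all genes of mean 10 or more. Among the 5812 genes with a mean of 1000 or more in both regions the median was −0.03 and 3389 were below 0. Their middle 50% ran from −0.15 to 0.08. Among the 40 members of that level the median was −0.11, 37 were below 0 and the middle 50% ran from −0.15 to −0.07. The lower ends of these 2 ranges were thus alike. When each table was scaled to its total instead, 36 members were below 0, with *Sdha*, *Atp5a1*, *Atp5g1* and *Atp5s* changing sign. The median was −0.08, and 45.1% of all genes of mean 10 or more were below 0. Centred on the genes with a mean of 1000 or more, 35 members were below 0, against 43.6% of all genes of mean 10 or more. Of the genes with a mean of 1000 or more, 50% are below 0 on this scale by construction. The median of the members was −0.08 there, and *Uqcrfs1* also changed sign.

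Few members had a centred log2 ratio of 0.32 or more in size, so that one centred mean exceeded the other by 25% or more, which is a limit on size and not a test. On the higher side of the EC there was 1 member. Of all genes of mean 10 or more, 14.4% were past the limit there (6.11% of genes with a mean of 1000 or more). On the lower side there was also 1 member, where 11.1% of all genes of mean 10 or more were past it (10.2% of genes with a mean of 1000 or more). No member with a mean of 1000 or more was past this limit in either direction, and their ratios ran from −0.24 to 0.15. In bulk tissue, fewer cells of a type and less RNA per cell cannot be told apart.

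The 2 members past the limit were both minor isoforms with low counts. *Cox6b2* (NCBIM37 chr7:4703396-4704696, reverse strand) had a centred log2 ratio of 0.68, a level 1.60-fold higher in the EC, from the mean normalized counts given above. *Cox7a1* (NCBIM37 chr7:30969190-30971047, forward strand) had −0.40 and was 1.32-fold lower in the EC. Their common partners had ratios of −0.07 (*Cox6b1*) and −0.13 (*Cox7a2*). Whether the differences of *Cox6b2* and *Cox7a1* exceed the spread between mice was not tested. Smooth muscle and muscle genes were also higher in the EC after centring, with 0.64 for *Acta2*, 0.54 for *Myh11* and 0.36 for *Des*, whereas the muscle-typical *Cox7a1* and *Cox6a2* lay below 0, and *Ckm*, the creatine kinase of skeletal muscle, had a mean count of only 10.2 in EC and 5.64 in PVC.

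The next highest ratios after *Cox6b2* were those of *Cox4i2* (0.17), *Cox5b* (0.15), *Atp5d* (0.12) and *Uqcr11* (0.02), the only other members above 0. *Cox5b*, a subunit of complex IV that binds zinc, had a mean normalized count of 5531 in EC and 2678 in PVC, and *Atp5d*, the delta subunit of F1, had 6223 and 3080. The coding sequences of *Cox5b* and *Uqcr11* have near-identical copies elsewhere in the genome, so reads could be lost or shared there. The span of *Atp5d* overlaps that of the gene *Dos*, and overlap of their exons was not computed.

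The lowest ratios after *Cox7a1* were those of *Uqcrh* (−0.24), *Cox6a2* (−0.22), *Atp5j* (−0.22) and *Cox7b* (−0.17). *Uqcrh*, the hinge protein of complex III that sits beside cytochrome c1, had a mean normalized count of 4262 in EC and 2707 in PVC. *Atp5j*, subunit F6 of the peripheral stalk, had 4311 and 2696, and *Cox7b*, 4332 and 2629. *Atp5j* overlaps *Gabpa* in the annotation, the gene of the DNA-binding subunit of GABP, which had a ratio of 0.01.

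**Figure D3:**
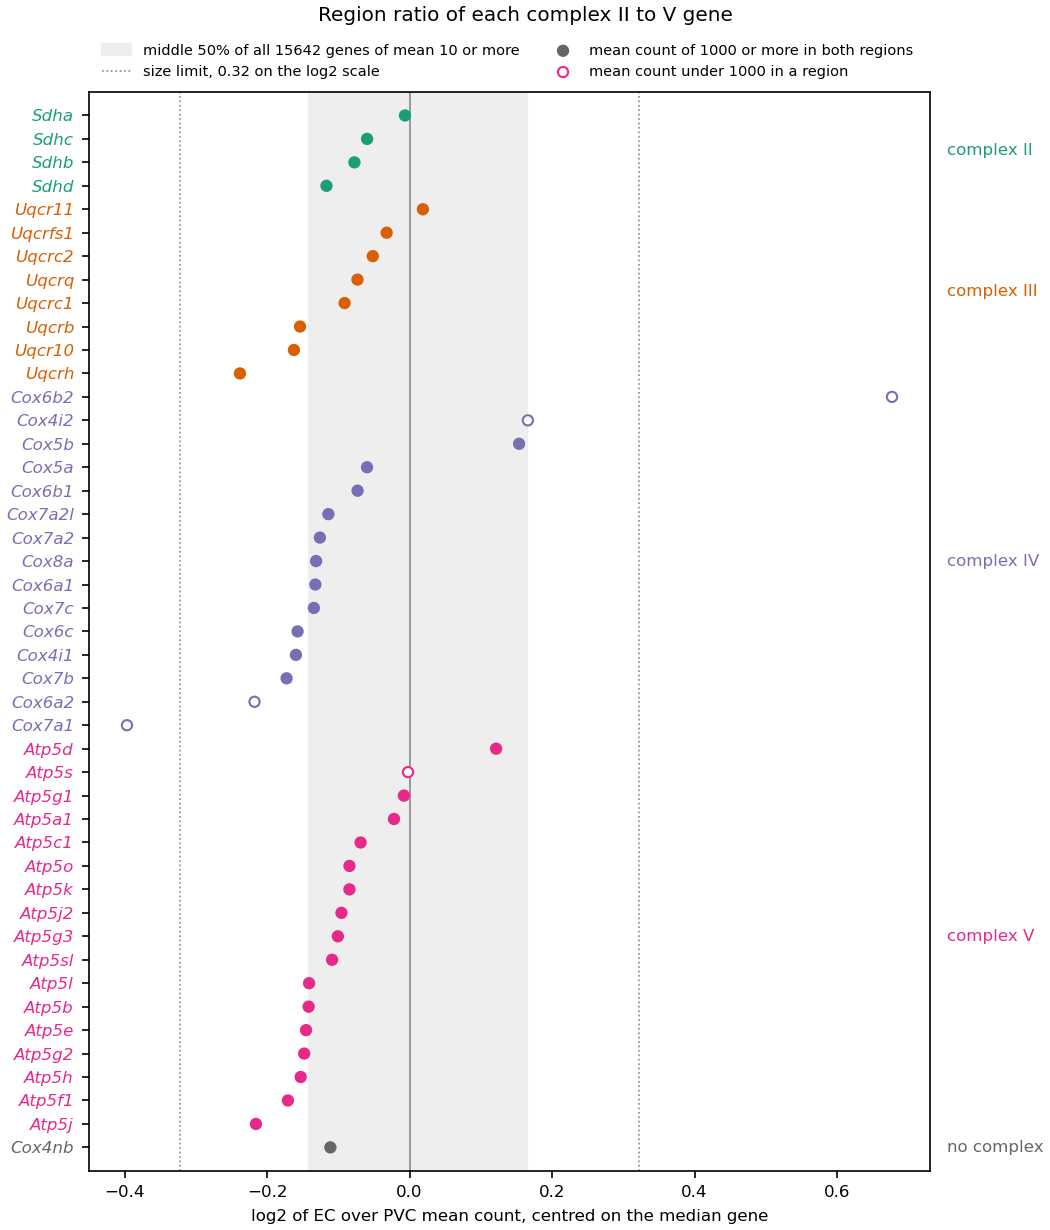
Centred log2 ratio of EC over PVC for each of the 45 genes, grouped by complex; filled points have a mean count of 1000 or more in both regions and open points do not, the grey band is the middle 50% of all genes of mean 10 or more, and dotted lines mark the size limit of 0.32. Most points lie between −0.24 and 0, and the 2 points beyond the dotted lines, *Cox6b2* and *Cox7a1*, are open. For genes of mean 1000 or more the middle 50%, not drawn, ran from −0.15 to 0.08.

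By complex, the medians were −0.07 for complex II, −0.08 for complex III, −0.13 for complex IV and −0.10 for complex V. All 4 complex II genes were below 0, with −0.01 for *Sdha*, −0.08 for *Sdhb*, −0.06 for *Sdhc* and −0.12 for *Sdhd*. In complex III 7 of 8 genes were below 0, in complex IV 12 of 15 and in complex V 16 of 17. Within ATP synthase the F1 genes had a median of −0.07, with −0.02 for *Atp5a1* and −0.14 for *Atp5b*. The peripheral stalk genes had −0.16, from −0.22 for *Atp5j* to −0.08 for *Atp5o*, and the membrane part had −0.10, from −0.15 for *Atp5g2* to −0.01 for *Atp5g1*. *Cox7a2l* (−0.11), *Cox4nb* (−0.11), *Atp5sl* (−0.11) and *Atp5s* (−0.0021), which are not subunits of their complex, lay in the same range. The medians of the complexes differ by less than the range of genes within each complex, and no difference between them was tested.

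Across the 45 members, the log2 levels per kb in the EC and the PVC had a Pearson correlation of 0.997, and no member moved by more than 3 places in the order of levels. This describes 45 genes whose values share the animals and the exon length, and genes are not independent replicates. The region ratio bore little relation to exon length, with a Spearman rho of 0.11 over the 45 members and 0.04 over 15098 genes.

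The 42 genes of complex I, NADH dehydrogenase, chosen by names starting with *Nduf* and including 4 assembly factors, had a median close to that of complexes II to V. It was −0.11, 39 were below 0, none was past the size limit on the higher side and 1, the assembly factor *Ndufaf2*, on the lower (−0.41), and they made up 0.230% of counts in EC and 0.245% in PVC. The 17 V-ATPase genes, which encode the related proton pump of endosomes and lysosomes, had a median of −0.02 with 10 below 0, and 1 of them, *Atp6v1c2*, was past the size limit on the higher side (2.05). No test of these differences was made.

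Other genes of the pathway came from lists chosen for their function. The 16 genes of the TCA cycle and pyruvate dehydrogenase had a median of −0.08, 12 were below 0 and none was past the size limit. *Idh3b*, a subunit of isocitrate dehydrogenase, had −0.18, and *Cs*, citrate synthase, had 0.06. The 5 electron carriers of mean 10 or more had a median of −0.04 and none past the size limit. Among them *Cycs*, cytochrome c, had −0.28 and *Cyc1*, cytochrome c1 of complex III, had −0.04, while the testis form *Cyct* was under the limit of 10.

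Assembly factors build the complexes, and no difference between their ratios and those of the subunits was tested. The 15 complex IV assembly genes of mean 10 or more had a median of 0.01, 7 of 15 were below 0 and none was past the size limit. *Lrpprc*, which stabilises mitochondrial mRNAs, was highest with 0.23, and *Cox15*, a heme A synthesis enzyme, was lowest with −0.18; *Sco2*, a copper chaperone, was listed at 0 in both regions. The 4 complex III assembly genes had a median of −0.0043, from −0.24 for *Uqcc* to 0.10 for *Bcs1l*, which inserts the Rieske protein. The 4 complex V assembly genes had −0.11, with −0.24 for *Atpaf1*, a chaperone of F1, and 0.01 for *Tmem70*. In the same list were *Atpif1*, an inhibitor of the enzyme (−0.04), and *Usmg5*, a small membrane subunit (−0.07), and all 6 genes had a median of −0.06. For complex II, *Sdhaf2*, which attaches flavin to *Sdha*, had 0.04, and *Sdhaf1* was under the limit.

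Of 10 regulators of these genes, 6 were below 0, 1 was past the size limit on the lower side and none on the higher, and the median was −0.14. *Esrra*, a nuclear receptor that acts with PGC-1alpha, had −0.41, with a mean normalized count of 2303 in EC and 1651 in PVC. *Ppargc1a*, which encodes PGC-1alpha itself, had −0.23. *Nrf1* had −0.15, *Gabpb1* −0.17 and *Tfam*, the mitochondrial transcription factor, −0.13. *Yy1* (0.16) and *Pprc1* (0.15) lay above 0.

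**Figure D4:**
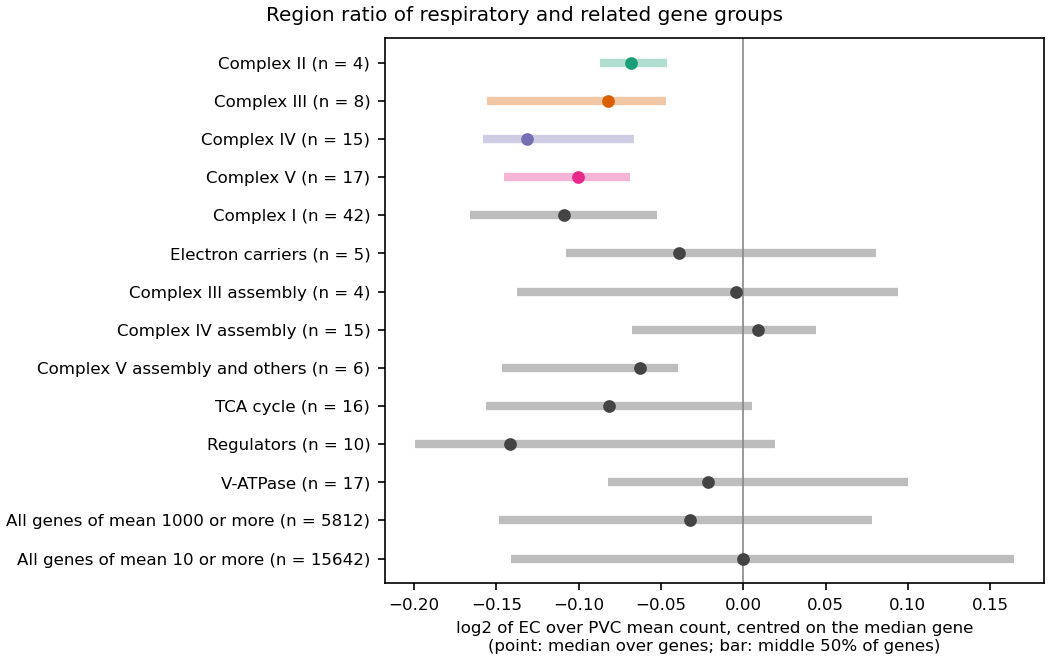
Centred log2 ratio of EC over PVC for groups of genes; points are medians over the genes of mean 10 or more in a group, bars are the middle 50% of those genes, and n is their number. Complexes I to V, the TCA cycle and the regulators have medians between −0.14 and −0.07. Complex IV assembly (0.01), complex III assembly (−0.0043) and V-ATPase genes (−0.02) lie near 0, the median of all genes of mean 10 or more. Electron carriers (−0.04), complex V assembly and others (−0.06) and all genes of mean 1000 or more (−0.03) lie between these.

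Markers of several cell types were further from 0 than most members. All 5 oligodendrocyte markers were past the size limit on the lower side of the EC, from −1.58 for *Mag* to −0.99 for *Cnp*, with summed mean counts of 42754 in EC and 58756 in PVC. Of 6 neuron markers found, 3 were past the limit on the lower side (*Snap25* −0.55, *Nefl* −0.81, *Nefm* −1.13), *Syt1* (−0.24) and *Tubb3* (−0.02) were below 0 and *Map2* was above it (0.31), and the median was −0.39. Of 3 excitatory neuron markers, 1 was past it on the lower side, *Nrgn* (−1.08). *Camk2a* (−0.20) was below 0, *Slc17a7* was above it (0.14), and the median was −0.20. Of 6 interneuron markers, 3 were past it on the lower side and 1 on the higher, with −1.70 for *Pvalb*, −0.79 for *Vip*, −0.39 for *Slc32a1* and 0.33 for *Sst*. Of 5 astrocyte markers, 2 were past it on the higher side, *Gfap* (0.62) and *Aqp4* (0.54), and 1 on the lower, *Aldh1l1* (−0.35). None of 5 microglia markers (median 0.06) and 4 endothelial markers (median −0.00026) was past it. Of the choroid plexus markers, *Ttr* had −2.18, at 155 in EC and 378 in PVC, whereas *Kl* (0.02) and *Clic6* (0.0021) lay near 0 and *Folr1* was under the limit of 10. Of 4 genes listed for the hippocampus, *Wfs1* (1.03) and *C1ql2* (1.79) were past it on the higher side, and *Prox1* (−0.25) and *Neurod6* (−0.11) lay below 0. How specific these genes are to hippocampus was not examined, and whether the EC samples held hippocampal tissue was not tested. The part of cell composition in the members' ratios was not tested.

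Members often start close to another gene that is read in the opposite direction. In the NCBIM37 annotation, 11 of 45 members (24.4%) had such a protein-coding neighbour starting within 1000 bases, with no overlap between the genes. Of 14219 protein-coding genes of mean 10 or more, 1409 (9.91%) had one. Pairs of genes that overlap at their starts were not counted, so the shares of all close starts may be higher. *Atp5j* with *Gabpa* and *Atp5f1* with *Wdr77* overlap in the annotation and are not among the 11. The starts of *Sdha* and *Ccdc127* were 29 bases apart, those of *Sdhd* and *Timm8b*, an import chaperone of the mitochondrial intermembrane space, 52 bases, and those of *Atp5c1* and *Kin* 83 bases. *Cox4i1* (chr8:123192190-123198109, forward strand) and *Cox4nb* (chr8:123177814-123192012, reverse strand) are such a pair, 178 bases apart, and both count among the 11. Levels of paired genes could differ widely: *Cox4i1* had a mean normalized count of 15725 in EC and 9458 in PVC and *Cox4nb* of 2886 and 1678.

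Counts of some members may be uncertain because of copies and overlaps. For 15 of the 45 members, coding sequence matched another locus at 95% identity or more over at least 100 bases. These were *Atp5c1*, *Atp5f1*, *Atp5g1*, *Atp5g2*, *Atp5h*, *Atp5k*, *Atp5l*, *Atp5o*, *Cox5b*, *Cox6c*, *Cox7a2l*, *Cox7b*, *Cox7c*, *Uqcr11* and *Uqcrb*, with *Atp5l* matching 8 other loci. The spans of *Atp5b*, *Atp5d*, *Atp5f1*, *Atp5j*, *Atp5o*, *Cox4i1*, *Cox4nb*, *Cox6a2*, *Cox6c*, *Uqcrb* and *Uqcrc2*, introns included, overlap another protein-coding gene. Overlap of exons was not computed. Without the 15 members with copies, an alternative chosen after seeing the data, the members' median ratio was −0.098.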

How the data were processed

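RNA was sequenced from the EC and PVC of 10 *APOE3/3* and 19 *APOE3/4* male mice, 58 libraries in all. The authors prepared poly(A)+ libraries with a kit that does not mark strand, aligned single-end reads to mm9 with TopHat2 (v2.0.6) and Bowtie2 (v2.0.2.0), counted them per gene with HTSeq on a modified NCBIM37.61 annotation and compared genotypes within each region with DESeq2 (v1.10.1), versions as in the submitters' processing notes and the methods. The authors deposited a table for each region. Its mean normalized count, a signal that the authors computed and deposited, is the average over the 29 libraries per region after division of each library's counts by its size factor, set within that region. The other columns hold the authors' own genotype comparison (log2 fold change, standard error, statistic, *p*-value and adjusted *p*-value) and were not used. The tables give no value per mouse, so depth and the spread between mice are not known and no test was made. Every value is a description.

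Libraries were grouped by the labels. The log2 ratio of EC over PVC was centred on the median of genes of mean 10 or more, and the limit of size was 0.32 on the log2 scale, or 25%. Levels were divided by the union of annotated exons (gencode vM1, NCBIM37), which gave a length for 96.5% of those genes. Copies were sought with BLAST 2.17.0 at 95% identity over 100 bases. Motifs were counted in the first RefSeq window listed per gene. The windows of *Atp5f1*, *Atp5s* and *Atp5sl* were found under newer gene names, and 10 members had no match (*Atp5a1*, *Cox4i1*, *Cox4i2*, *Cox4nb*, *Cox6a2*, *Cox6c*, *Sdhc*, *Uqcrb*, *Uqcrc2* and *Uqcrq*). The neuron marker *Rbfox3* was not matched in the tables. Python 3.11.15, numpy 2.4.6, pandas 2.3.3 and matplotlib 3.10.9 were used, and the centring was tested on simulated data. Genes named with values are the isoform families, the highest and lowest member of each complex, the 5 largest ratios in each direction, the complex II genes, those near the limit of 10 and those that are no subunit, beside list genes chosen as examples after their values were seen. Members and lists were chosen with earlier results of these data known. Alternatives changed the centring, the limits, the fold and the length.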

Additional observations from a re-analysis of the deposited data

How the results depend on the processing

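Across 107 alternative values, 83 stayed close to the value reported and 24 moved. A move was over 0.1 on the log2 scale of a ratio, over 5 percentage points, or over 1.5 times a count, share or span. Only the median ratios could change direction, and 0 did. The limit of 0.1 is about as large as those medians, so a median that fell almost to 0 could still count as close. Of the 83, 7 are scaling to the total without the mitochondrially encoded genes, which is the same as scaling to the total by construction, since those genes are listed at 0. The members' median ratio stayed between −0.11 and −0.08 under scaling to the total, centring on genes of mean 100 or more, other limits on members and, chosen after seeing the data, without members with copies or without *Cox4nb*, *Cox7a2l*, *Atp5s* and *Atp5sl*. The medians of the 4 complexes stayed between −0.13 and −0.04 under the scalings, centrings and limits, and were not computed for these last 2. Scaling to the total changed the sign of 4 members (*Atp5a1*, *Atp5g1*, *Atp5s* and *Sdha*), all within 0.03 of 0. The count of members past the size limit and higher in the EC went to 0 when only members of mean 100 or more were kept, which leaves out *Cox6b2*. The count past the limit and lower became 2 with all listed genes above 0, adding *Cox8b*, 0 with members of mean 100 or more, and 0 at a limit of 1.5-fold. Without length correction the median percentile was 81.7 in EC and 83.9 in PVC. The *Atp5g1* share was 7.26% in EC and 6.77% in PVC with the longest transcript, 31.9% and 30.3% without length correction, and 32.0% and 30.5% with the median protein-coding transcript length, added after seeing the data. Without length correction the shares of *Cox7a1* (0.353% and 0.427%), *Cox7b2* (0.255% and 0.205%) and *Cox8b* (0.0612% and 0.0987%) were lower by over 1.5 times. The order of levels within a complex, and the span of complexes II and V, depended on the length, as tried after seeing the data. No paired analysis was possible because the tables hold no value of a single mouse and no result came from a test. Depth per library, and with it the counting error of any gene, is not known.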

Other observations

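The tables also list 37 mitochondrially encoded genes, among them 13 protein genes, of which 6 encode subunits of complexes III to V. All 37 were listed at 0 in both regions, so the ratio of nuclear to mitochondrial transcripts of a complex could not be formed. The gene with the highest mean normalized count in both regions was *Gm10925*, with 387131 in the EC and 220325 in the PVC. It lies in NCBIM37 at chr1:24620814-24621627, reverse strand, and was singled out after its values were seen. Its longest match elsewhere, 588 bases at 100% identity, is to the mitochondrial genome at chrM:8016-8603, inside *mt-Atp6* (chrM:7927-8607), which encodes subunit a of ATP synthase. Whether its reads came from the nuclear or the mitochondrial copy was not tested.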
